A study of Mus musculus with 8 samples.

Results

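The cytosolic translation initiation factors (eIFs) and elongation factors (eEFs) were compared between lung endothelial cells with an induced deletion of a subunit of mitochondrial respiratory complex III (KO) and wild-type lung endothelial cells (WT). The members were the protein-coding genes with symbols that start with Eif or Eef and a digit, leaving out the eIF2 kinases (Eif2ak genes), Eif4ebp1, the Y-linked Eif2s3y and pseudogenes. This gave 61 genes of the 43430 gene IDs in the count table, and 56 of them were among the 12689 genes that passed the filter on low counts and were tested. The KO libraries came from C57BL/6 mice at postnatal day 15 in which the subunit named QPC, taken as the protein encoded by Uqcrq, was deleted conditionally in endothelial cells by giving tamoxifen, which triggers the deletion, on postnatal days 0 to 4. The WT libraries came from wild-type C57BL/6 mice of the same age, and the labels give the same tamoxifen treatment for both groups. Cells carrying CD31, a surface protein of endothelial cells, were sorted from the lungs, and RNA was sequenced from 4 KO and 4 WT libraries. Neither the driver of the endothelial deletion nor the deleted part of the gene is given in the sources used here. Whether the libraries of a group are from different animals is not stated, and p-values therefore reflect only the spread among these libraries, which may be partly technical.

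Initiation brings the small ribosomal subunit, the initiator tRNA and the mRNA together. The eIF2 complex carries the initiator tRNA and is recharged with GTP by eIF2B, the eIF3 complex holds the small subunit, and the eIF4 factors bind the mRNA cap and unwind the leader. During elongation eEF1A delivers aminoacyl-tRNA, the eEF1B subunits recharge eEF1A with GTP, and eEF2 moves the ribosome along by a codon. Many of these factors are abundant proteins of growing cells, and several of their mRNAs are known targets of growth signalling through mTOR and of the transcription factor MYC.

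The libraries held 6407924 to 13981329 counts. Uqcrq, the gene taken as the target, had 1.59, 15.6, 9.57 and 14.0 CPM (counts scaled to library size with TMM factors) in KO replicates 1 to 4, against 26.3, 24.5, 26.8 and 31.5 CPM in WT replicates 1 to 4. Every KO library was below every WT library, and the log2 fold change of -1.42 (SE 0.53, edgeR adjusted p = 0.179) did not pass the threshold of 0.05. The summed level of 9 endothelial markers was 11991 to 15455 CPM in KO and 13774 to 16210.4 CPM in WT. Of these markers 2, Tek and Erg, were called lower in KO by edgeR (beside 1.39% of all genes), while DESeq2 called 3. Under length and GC detrending neither was called (adjusted p = 0.0703 for Tek and 0.0744 for Erg). With KO replicate 2 or 3 left out the edgeR adjusted p of Erg was 0.0872 and 0.0801, and with WT replicate 1 or 2 left out it was 0.0595 and 0.0772. The libraries also held transcripts of other lung cells in both groups. The sum of 8 alveolar type 2 markers was 3644 to 16005 CPM in KO and 3805 to 21996 CPM in WT, and the sum of 10 leukocyte markers was 399 to 1497 CPM in KO and 417 to 2009 CPM in WT, with 5 of the 10 leukocyte markers under the filter on low counts. Nearly all of the leukocyte sum was Lyz2, which alveolar type 2 cells also express, and the other 9 markers had 0 to 11.7 CPM each in any library. Of the markers tested in these lists 0 were called by edgeR, DESeq2 or limma voom and 0 had an unadjusted p under 0.05. KO replicates 2 and 4 and WT replicates 1 and 4 held Y-linked transcripts, and the other libraries were nearly without them.

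The translation factors as a group lay higher in KO. Their summed counts were 2.20, 2.18, 2.26 and 2.40% of all counts in KO replicates 1 to 4, against 1.86, 1.67, 1.62 and 1.78% in WT replicates 1 to 4. The groups did not overlap, and the means were 2.26 ± 0.0977% in KO and 1.73 ± 0.107% in WT (SD, n = 4 each). Eef1a1 alone took 0.775% of all counts in KO and 0.594% in WT, and Eef2 took 0.451% in KO and 0.271% in WT. Without this pair the remaining members summed to 1.03 ± 0.0516% in KO and 0.866 ± 0.0241% in WT. These are shares of sorted bulk RNA, in which fewer cells of a type and less RNA per cell cannot be told apart.

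Of the 56 members tested, 7 were called higher in KO by edgeR (12.5% of the members, beside 2.25% of all genes tested) and 0 were called lower (beside 1.39% of all genes tested). Either direction together took 3.63% of all genes. The 7 were Eef1a1, Eef1b2, Eef1d, Eef1g, Eef2, Eif2s2 and Eif4a1. Of these, 5 lay among the 10 tested genes with an Eef symbol and 2 among the 46 with an Eif symbol. At an unadjusted p under 0.05, 19 members were higher (beside 8.69% of all genes) and 1, Eif4ebp2, was lower (beside 6.53%). DESeq2 called 10 members higher (beside 3.29% of all genes), limma voom 8 (beside 2.4%) and edgeR's newer dispersion option 8 (beside 3.55%), and each of these called 0 lower. All KO libraries lay above all WT libraries in 16 members (beside 6.94% of all genes), and in 0 members they lay below (beside 4.67% of all genes). The fold change was above 0 in 47 of the 56 members, beside 51% of all genes. The median log2 fold change of the tested members was 0.31, beside 0.01 over all genes tested. Members were more strongly expressed than most genes, and their median SE was 0.20 on the log2 scale, beside 0.36 over all genes. Among the 30 members with a mean of at least 100 CPM, a limit chosen after the data were seen, 7 were called higher, beside 8.91% of all genes at that level, and their median log2 fold change was 0.41, beside 0.05.

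**Figure D1:**
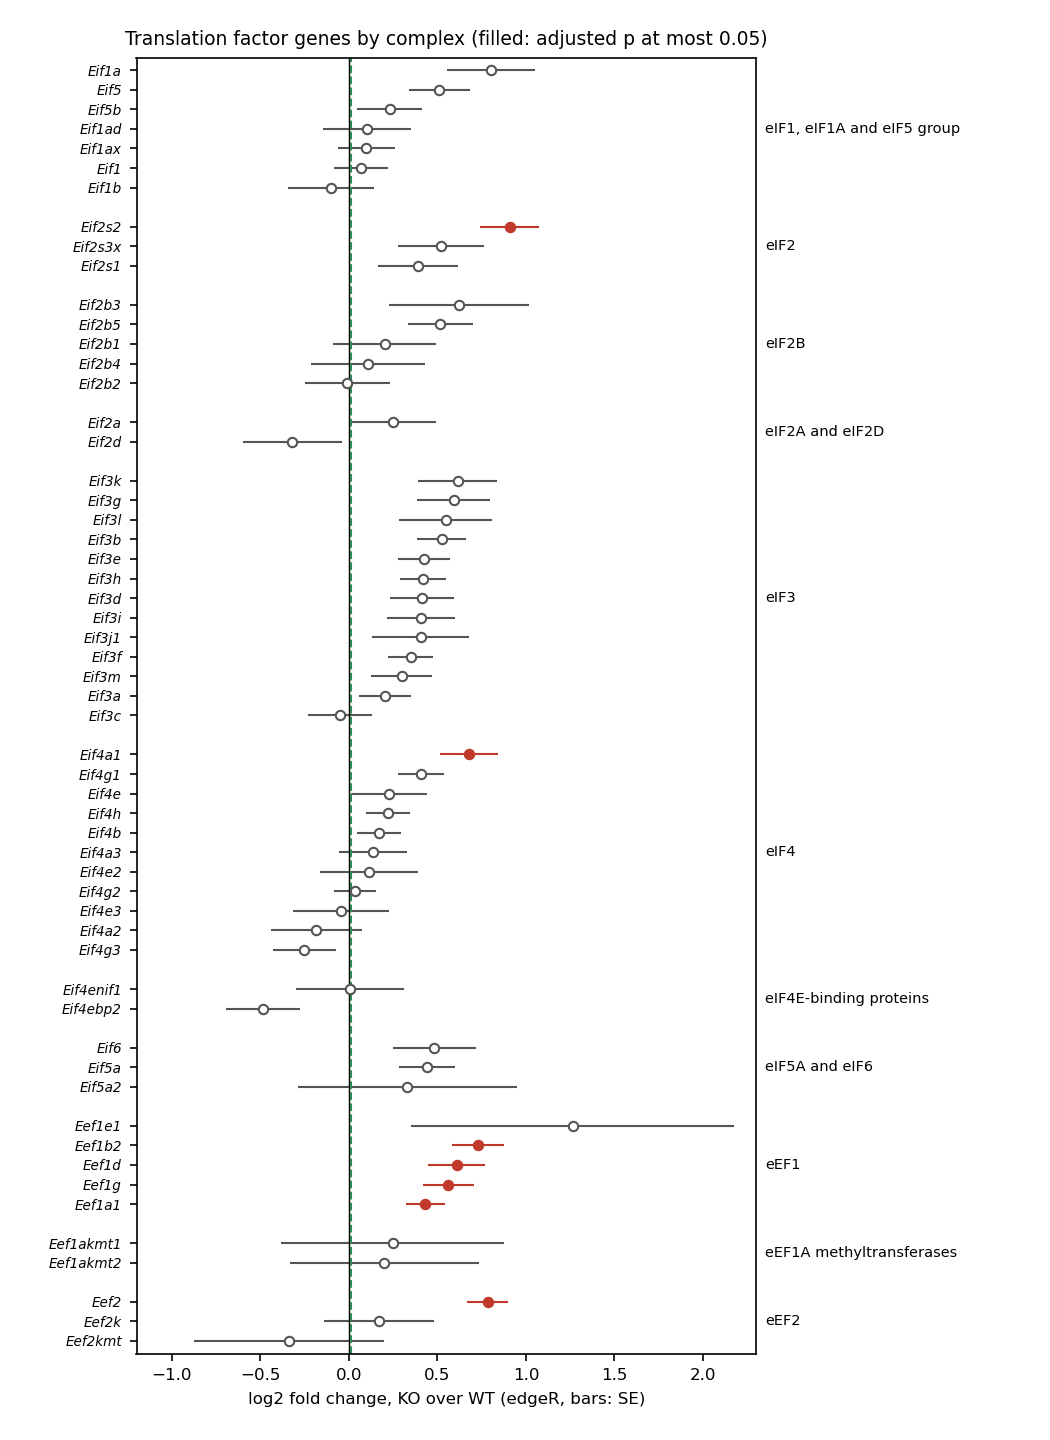
Log2 fold change (KO over WT, x axis) of the 56 tested members, grouped by complex. Points are the edgeR estimates, bars are 1 SE, filled red points have an adjusted p of at most 0.05 and the dashed line is the median of all genes tested (0.01). The 7 filled points all lie right of 0, and 4 of them are eEF1 subunits.

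The counts depended on the processing. When the dependence on transcript length and GC content was fitted in each library and removed (length and GC detrending), which also takes out any genotype difference that follows length or GC content, 0 members were called and their median log2 fold change was 0.18, while the median of all genes was -0.10 with this setting and 0.01 without it. That setting called 57 genes higher and 93 lower, against 285 higher and 176 lower without it. The transcripts of the 7 called members had a median length of 2.86 kb and a median GC content of 47.4%, beside 3.44 kb and 49.7% over all genes tested. The part of length and GC content in the result was not tested beyond this setting. When WT replicate 2, 3 or 4 or KO replicate 3 or 4 was left out, each alone, the number of members called was 3. The share of all genes called higher was then 1.33 to 1.72%, beside 2.25% with all libraries. The 3 were Eef1b2, Eef2 and Eif2s2, which were called without each of the 8 libraries. With the alveolar type 2 level as a covariate 9 members were called higher (beside 2.77% of all genes). With the Y-linked level it was 8 (beside 2.66%), the 7 above among them each time.

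**Figure D2:**
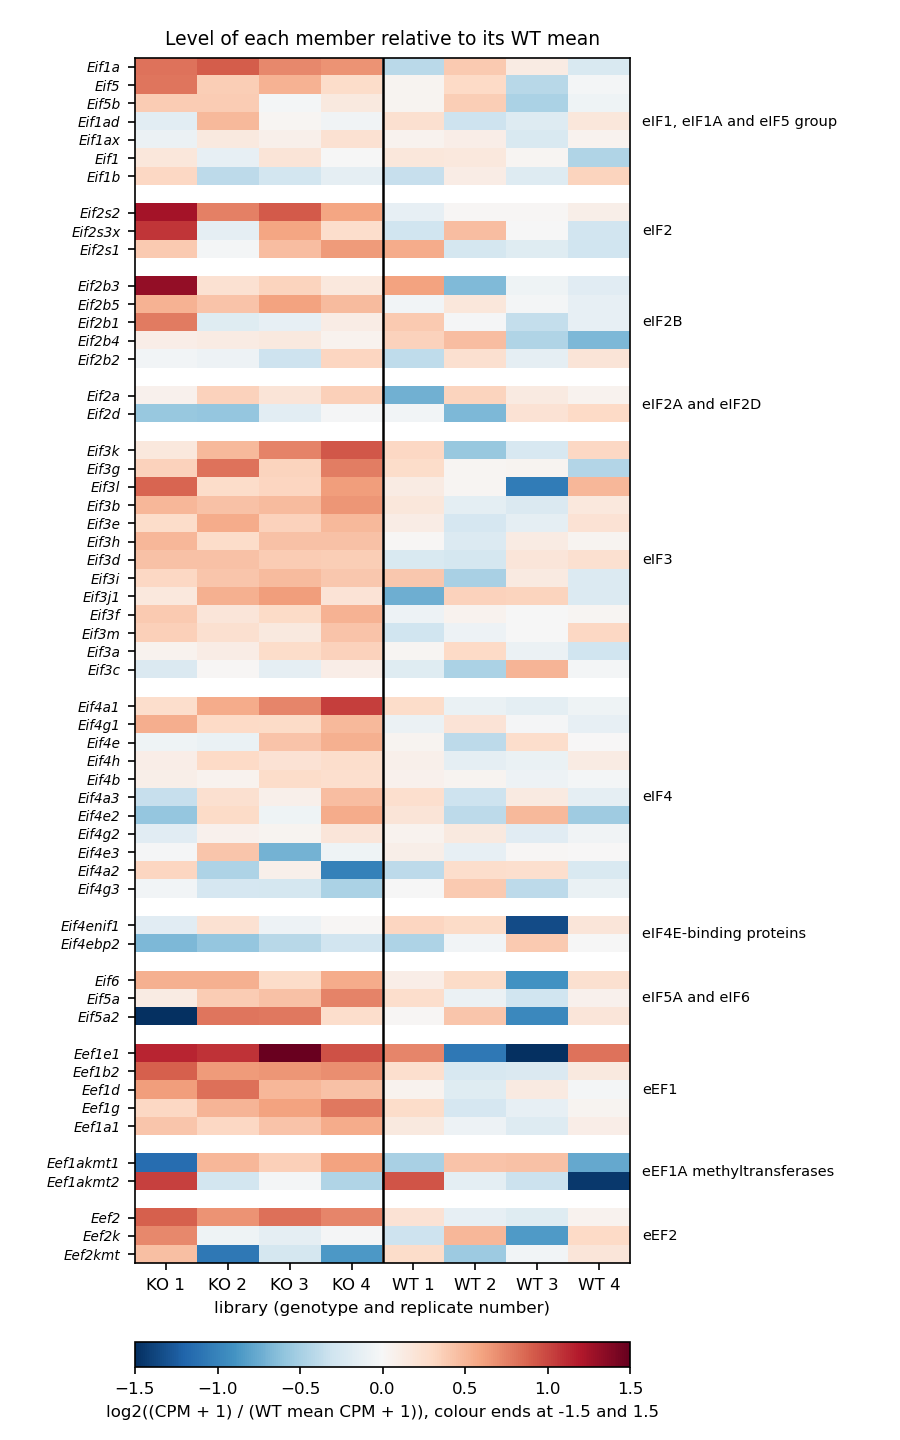
Level of each tested member in each library relative to its WT mean, as log2 of (CPM + 1) over (WT mean CPM + 1), with the 4 KO libraries left of the line and the 4 WT libraries right of it. Red is above the WT mean and blue below it. The 4 core eEF1 genes, Eef2 and most eIF3 subunits are red across the KO columns, whereas eIF2B, eIF4E-binding proteins and the methyltransferases are mixed.

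Among the genes with an Eef symbol, 5 of 10 tested were called higher, beside 2.25% of all genes. The 5 called were Eef1a1, Eef1b2, Eef1d, Eef1g and Eef2. Of genes with a mean of at least 100 CPM, the level of the 5 called, the share called higher was 8.91%. The median log2 fold change of the 10 genes was 0.50. They include Eef1e1, the kinase gene Eef2k and the methyltransferase genes Eef1akmt1, Eef1akmt2 and Eef2kmt, which do not encode elongation factors. The 4 core genes of eEF1 rose in KO. Eef1a1, which encodes the aminoacyl-tRNA carrier eEF1A1 (ENSMUSG00000037742, chromosome 9 from 78478449 to 78489151 on the minus strand in GRCm38), had 7801, 7272, 7903 and 8632 CPM in KO replicates 1 to 4, against 6468, 5561, 5133 and 6270.1 CPM in WT replicates 1 to 4. It was the most abundant member per length of exon, at 3169.6 CPM per kb in KO and 2349.8 CPM per kb in WT, and all KO libraries lay above all WT libraries. It rose in KO with a log2 fold change of 0.43 (SE 0.11, edgeR adjusted p = 0.0371). Eef1b2 (ENSMUSG00000025967, chromosome 1 from 63176825 to 63180486 on the plus strand), the eEF1B subunit with nucleotide exchange activity, had 504, 419.6, 426 and 438 CPM in KO replicates 1 to 4, against 319.9, 229, 232 and 297 CPM in WT replicates 1 to 4. Its groups were far apart, and its log2 fold change was 0.73 (SE 0.14, edgeR adjusted p = 0.00848).

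Eef1d (ENSMUSG00000055762, chromosome 15 from 75894205 to 75909556 on the minus strand), the other exchange subunit, had 156, 179.6, 142 and 137 CPM in KO replicates 1 to 4, against 104, 88.9, 111 and 99.0 CPM in WT replicates 1 to 4. Its KO libraries all lay above the WT ones, with a log2 fold change of 0.61 (SE 0.16, edgeR adjusted p = 0.0469). Eef1g (ENSMUSG00000071644, chromosome 19 from 8967041 to 8978479 on the plus strand), the subunit that anchors eEF1B, had 539, 617, 658 and 749.6 CPM in KO replicates 1 to 4, against 526, 365, 399 and 447 CPM in WT replicates 1 to 4. The gap between its lowest KO and highest WT library was small, and its log2 fold change was 0.56 (SE 0.15, edgeR adjusted p = 0.0416). Summed over Eef1a1, Eef1b2, Eef1d and Eef1g the level was 8999, 8488, 9130.1 and 9956 CPM in KO replicates 1 to 4, against 7419, 6243, 5875 and 7113 CPM in WT replicates 1 to 4. Eef1e1, a scaffold protein of the tRNA synthetase complex that carries an eEF1 name, was picked out after its values were seen. It had 19.8, 18.9, 25.3 and 17.2 CPM in the KO libraries, against 14.6, 3.45, 0 and 15.5 CPM in the WT libraries, so its groups were separate although the log2 fold change of 1.27 (SE 0.91, edgeR adjusted p = 0.629) did not pass. WT replicate 3, the shallowest library, held 0 counts of it, which allows a level of up to 0.448 CPM (3 counts).

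These calls differed in how far they held. Eef1b2 was called in 19 of 21 alternatives and lost its call under length and GC detrending (log2 fold change 0.54, edgeR adjusted p = 0.235) and with WT replicate 3 and KO replicate 1 out together (edgeR adjusted p = 0.0619). Eef1a1 was called in 12 of 21. It lost its call without WT replicate 2 (edgeR adjusted p = 0.0971), WT replicate 3 (0.122), WT replicate 4 (0.0644), KO replicate 3 (0.104) or KO replicate 4 (0.128), in a range over its alternatives of 0.00152 to 0.783. Eef1g was called in 10 of 21 and lost its call without WT replicate 2 (edgeR adjusted p = 0.115), WT replicate 3 (0.118), WT replicate 4 (0.092), KO replicate 2 (0.0774), KO replicate 3 (0.113) or KO replicate 4 (0.145). Eef1d was called in 6 of 21, and leaving out any single library ended its call, at edgeR adjusted p of 0.0552 (without WT replicate 3) to 0.183 (without KO replicate 2). Under length and GC detrending the log2 fold change was 0.20 for Eef1a1 (edgeR adjusted p = 0.783), 0.44 for Eef1d (edgeR adjusted p = 0.417) and 0.29 for Eef1g (edgeR adjusted p = 0.592). With each library left out the log2 fold change was 0.38 to 0.48 for Eef1a1, 0.53 to 0.66 for Eef1d and 0.47 to 0.67 for Eef1g, above 0 each time.

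The eEF1A methyltransferases, which modify lysines of eEF1A, had few counts and wide errors. Eef1akmt1 had 3.93, 14.5, 12.98 and 15.6 CPM in the KO libraries, against 6.78, 13.7, 13.8 and 5.43 CPM in the WT libraries. Eef1akmt2 had 34.4, 13.3, 16.0 and 11.7 CPM in the KO libraries, against 32.5, 14.8, 12.9 and 5.35 CPM in the WT libraries. The groups overlapped for both, with log2 fold changes of 0.25 (SE 0.63, edgeR adjusted p = 0.938) for Eef1akmt1 and 0.20 (SE 0.53, edgeR adjusted p = 0.942) for Eef1akmt2. Of these 2 genes edgeR called 0, as did DESeq2 and limma voom, with 0 at an unadjusted p under 0.05. Eef1akmt3 was below the filter on low counts, and Eef1akmt4 was not analysed here. Eef1a2, the muscle and neuron form of eEF1A, had 0 counts in all 8 libraries.

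Eef2 (ENSMUSG00000034994, chromosome 10 from 81176631 to 81182498 on the plus strand), the translocase of elongation, had the smallest p-value of all members. It had 4969, 4274, 4736 and 4452 CPM in KO replicates 1 to 4, against 3099, 2464, 2357 and 2775 CPM in WT replicates 1 to 4. The lowest KO library lay well above the highest WT library, and the level was 1.72-fold higher in KO, a log2 fold change of 0.79 (SE 0.12, edgeR adjusted p = 0.00119). It was called in 20 of 21 alternatives. Under length and GC detrending its log2 fold change was 0.69, with an edgeR adjusted p of 0.105. Eef2k encodes the kinase that inhibits eEF2 by phosphorylation. It had 74.8, 43.0, 41.0 and 44.5 CPM in the KO libraries, against 36.2, 64.1, 24.5 and 55.6 CPM in the WT libraries, and KO replicate 1 stood above the rest. Eef2kmt, the methyltransferase of eEF2, had 19.7, 6.18, 11.6 and 7.31 CPM in the KO libraries, against 17.3, 9.40, 13.8 and 16.1 CPM in the WT libraries. Neither passed the test, with log2 fold changes of 0.17 (SE 0.31, edgeR adjusted p = 0.909; -0.08 without KO replicate 1) for Eef2k and -0.34 (SE 0.54, edgeR adjusted p = 0.885) for Eef2kmt.

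**Figure D3:**
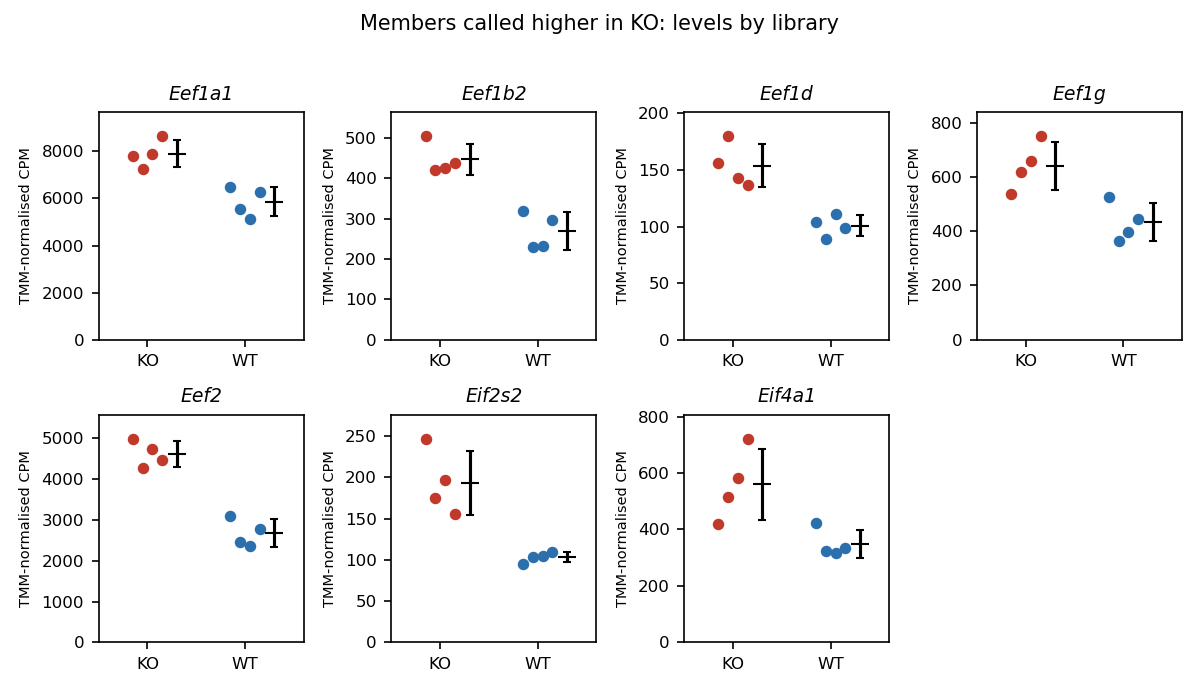
TMM-normalised CPM (y axis, from 0) of the 7 members called higher in KO, with KO libraries in red and WT libraries in blue, in order of replicate number within a group. Crosses and bars are the mean and SD (n = 4 each). The groups are separate in 6 panels, and in the Eif4a1 panel KO replicate 1 lies just below WT replicate 1.

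Among the genes with an Eif symbol, 2 of 46 tested were called higher, beside 2.25% of all genes. Both had a mean of at least 100 CPM, a level at which 8.91% of all genes were called higher. The 46 also count genes below that level, so 8.91% is not their matched share. Eif5a, Eif6 and the eIF4E-binding proteins are among the 46, whose median log2 fold change was 0.27. The eIF2 complex, the carrier of the initiator tRNA, has the subunits alpha (Eif2s1), beta (Eif2s2) and gamma (Eif2s3x). Eif2s2 (ENSMUSG00000074656, chromosome 2 from 154871410 to 154892935 on the minus strand) had 246, 175, 197 and 156 CPM in KO replicates 1 to 4, against 94.9, 104, 104 and 109 CPM in WT replicates 1 to 4. WT libraries were tightly grouped and all KO libraries lay above them, with a log2 fold change of 0.91 (SE 0.17, edgeR adjusted p = 0.00556). It was called in 20 of 21 alternatives. Under length and GC detrending its log2 fold change was again 0.91, with an edgeR adjusted p of 0.0595.

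Eif2s1, the subunit phosphorylated by the stress kinases, had 110.0, 81.7, 115 and 130.0 CPM in the KO libraries, against 122, 69.3, 73.6 and 67.7 CPM in the WT libraries. WT replicate 1 lay within the KO range, and the log2 fold change of 0.39 (SE 0.22, edgeR adjusted p = 0.471) did not pass. Eif2s3x, which lies on the X chromosome and has a Y-linked copy, had 328, 141, 233 and 186 CPM in the KO libraries, against 125, 213, 154 and 127 CPM in the WT libraries. Its groups overlapped, with a log2 fold change of 0.52 (SE 0.24, edgeR adjusted p = 0.33), or an adjusted p of 0.0914 with the Y-linked level as a covariate. Among libraries with Y-linked transcripts Eif2s3x had 141 and 186 CPM in KO, against 125 and 127 CPM in WT. Among libraries nearly without them it had 328 and 233 CPM in KO, against 213 and 154 CPM in WT. KO was above WT in both kinds of library, and these sets of 2 libraries were not tested. With Eif2s3y added, the gamma subunit genes summed to 244 ± 58.5 CPM in KO and 167 ± 30.8 CPM in WT (SD, n = 4 each). The 3 eIF2 subunits together, without Eif2s3y, reached 684, 398, 545 and 472 CPM in KO replicates 1 to 4, against 343, 386, 332 and 304 CPM in WT replicates 1 to 4. KO replicate 1, a library nearly without Y-linked transcripts, was the highest of them, and 328 CPM of its sum were Eif2s3x.

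The eIF2B complex reloads eIF2 with GTP. Of its 5 subunits 0 were called in either direction by edgeR, DESeq2 or limma voom. At an unadjusted p under 0.05, 1 was higher (beside 8.69% of all genes), and the median log2 fold change was 0.20. Eif2b5, the catalytic subunit, had 88.0, 82.4, 93.0 and 85.4 CPM in the KO libraries, against 59.3, 68.9, 59.6 and 56.0 CPM in the WT libraries. All KO libraries were above all WT libraries, with a log2 fold change of 0.52 (SE 0.18, edgeR adjusted p = 0.154). Eif2b3 had 46.6, 21.4, 23.1 and 20.3 CPM in the KO libraries, against 28.0, 11.0, 17.2 and 16.0 CPM in the WT libraries, where KO replicate 1 alone stood high. Eif2b1 had 61.5, 31.3, 32.6 and 38.6 CPM in the KO libraries, against 47.0, 35.1, 27.7 and 32.5 CPM in the WT libraries, again with KO replicate 1 highest. Eif2b4 had 30.0, 30.5, 31.1 and 29.0 CPM in the KO libraries, against 35.7, 38.9, 20.2 and 17.1 CPM in the WT libraries, with a wide spread in WT. The adjusted p was 0.544 for Eif2b3, 0.869 for Eif2b1 and 0.953 for Eif2b4 by edgeR. Eif2b2, the remaining subunit, had a log2 fold change of -0.01 (edgeR adjusted p = 0.994). Eif2a and Eif2d encode single-chain proteins that can deliver initiator tRNA outside eIF2. Eif2a had 59.6, 72.6, 64.9 and 73.1 CPM in the KO libraries, against 34.0, 71.9, 62.3 and 59.1 CPM in the WT libraries. Eif2d had 29.6, 29.4, 39.6 and 43.9 CPM in the KO libraries, against 43.3, 27.5, 52.0 and 55.0 CPM in the WT libraries. Both overlapped between the groups, with log2 fold changes of 0.25 (SE 0.24, edgeR adjusted p = 0.762) for Eif2a and -0.32 (SE 0.28, edgeR adjusted p = 0.729) for Eif2d.

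The eIF3 complex is the large scaffold on the small ribosomal subunit. Of its 13 tested genes, 12 had a fold change above 0, 6 had all KO libraries above all WT libraries (beside 6.94% of all genes) and 0 were called by edgeR. At an unadjusted p under 0.05, 7 were higher (beside 8.69% of all genes) and 0 lower (beside 6.53%). DESeq2 called 2 higher (Eif3b and Eif3h, beside 3.29% of all genes). Limma voom (beside 2.4%) and edgeR's newer dispersion option (beside 3.55%) called Eif3b. The median log2 fold change was 0.41 (beside 0.01 over all genes), and 0.20 under length and GC detrending (beside -0.10 over all genes). Summed over all eIF3 genes the level was 2633, 2617, 2647 and 2926 CPM in KO replicates 1 to 4, against 2146, 1961, 2137 and 2194 CPM in WT replicates 1 to 4. The lowest KO sum lay above the highest WT sum.

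Eif3b, a core subunit that binds the Eif3g and Eif3i proteins, had 295, 284, 289.9 and 331 CPM in KO replicates 1 to 4, against 234, 189, 179.7 and 232 CPM in WT replicates 1 to 4. With a log2 fold change of 0.52 (SE 0.14, edgeR adjusted p = 0.0502) it lay just outside the threshold, and it was called in 5 of 21 alternatives. Eif3h had 379, 324, 365 and 363 CPM in the KO libraries, against 270.3, 231, 293 and 276 CPM in the WT libraries. Eif3e had 234, 283, 245 and 271 CPM in the KO libraries, against 208, 162, 175 and 225 CPM in the WT libraries. Both encode subunits that the budding yeast complex lacks, both had separate groups, and their log2 fold changes were 0.42 (SE 0.13, edgeR adjusted p = 0.0932) for Eif3h and 0.42 (SE 0.15, edgeR adjusted p = 0.144) for Eif3e. Eif3g, an RNA-binding subunit, had 92.3, 128, 91.7 and 124 CPM in the KO libraries, against 88.2, 74.2, 74.3 and 53.1 CPM in the WT libraries. Its groups were also separate, with a log2 fold change of 0.59 (SE 0.21, edgeR adjusted p = 0.143). Eif3d and Eif3f were the remaining separated subunits, with log2 fold changes of 0.41 (SE 0.18, edgeR adjusted p = 0.272) for Eif3d and 0.35 (SE 0.13, edgeR adjusted p = 0.166) for Eif3f.

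Eif3c, a core subunit, was the exception in direction and was picked out after its values were seen. It had 224, 264, 236 and 279 CPM in the KO libraries, against 229, 188, 371 and 254 CPM in the WT libraries. WT replicate 3 was above every KO library and the other WT libraries overlapped with KO, with a log2 fold change of -0.05 (SE 0.18, edgeR adjusted p = 0.965). Without WT replicate 3 its log2 fold change was 0.17 (edgeR adjusted p = 0.763). The remaining tested subunits (Eif3a, Eif3i, Eif3j1, Eif3k, Eif3l and Eif3m) had log2 fold changes of 0.20 to 0.61 and overlapping groups, and Eif3j2 was below the filter on low counts. Annotated exons of Eif3d share 43.3% of their length with a gene on the other strand. Such reads cannot be told apart without the strand setting of the counting, which is not given in the sources used here.

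The eIF4 group was set by gene symbol and holds genes beyond those that bind the cap or open the leader. In it, 1 of 11 tested genes was called higher, beside 2.25% of all genes. Of genes with a mean of at least 100 CPM, the level of the called gene, 8.91% were called higher. The median log2 fold change of the group was 0.14. Eif4a1 (ENSMUSG00000059796, chromosome 11 from 69666936 to 69672423 on the minus strand), the main eIF4A helicase, had 419.6, 516, 582 and 719.8 CPM in KO replicates 1 to 4, against 423, 325, 315 and 335 CPM in WT replicates 1 to 4. KO replicate 1 lay just below WT replicate 1 and the other KO libraries lay above all WT libraries, with a log2 fold change of 0.68 (SE 0.16, edgeR adjusted p = 0.0288). It was called in 14 of 21 alternatives. Its call ended without WT replicate 2 (edgeR adjusted p = 0.0833), WT replicate 3 (0.093), WT replicate 4 (0.0876), KO replicate 3 (0.0855) or KO replicate 4 (0.106). Its log2 fold change was 0.52 to 0.80 with each library left out. Length and GC detrending also ended it (log2 fold change 0.53, edgeR adjusted p = 0.209).

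Eif4g1, the scaffold of the cap-binding complex, had 516, 435, 430.3 and 497 CPM in the KO libraries, against 334, 407, 349 and 325 CPM in the WT libraries. All KO libraries lay above all WT libraries, but the log2 fold change of 0.41 (SE 0.13, edgeR adjusted p = 0.103) did not pass, and DESeq2 called it. Eif4h, a helper of the helicase, had 417, 478, 449.7 and 465 CPM in the KO libraries, against 411, 355, 362 and 424 CPM in the WT libraries. Eif4g3, another scaffold, had 178, 153, 153 and 131 CPM in the KO libraries, against 182, 240.1, 139 and 171 CPM in the WT libraries. Both overlapped between the groups, with log2 fold changes of 0.22 (SE 0.12, edgeR adjusted p = 0.454) for Eif4h and -0.25 (SE 0.18, edgeR adjusted p = 0.609) for Eif4g3. The cap-binding protein gene Eif4e had a mean of 87.6 ± 20.1 CPM in KO and 74.9 ± 13.8 CPM in WT (SD, n = 4 each), with a log2 fold change of 0.23 (SE 0.22, edgeR adjusted p = 0.759). Eif4e1b had 0 counts in all libraries. Eif4g2, a scaffold that does not bind the cap protein, had a mean of 1378 ± 134 CPM in KO and 1343 ± 127 CPM in WT (SD, n = 4 each) and a log2 fold change of 0.04 (SE 0.12, edgeR adjusted p = 0.958). The other tested genes of the group (Eif4a2, Eif4a3, Eif4b, Eif4e2 and Eif4e3) were not called, with log2 fold changes of -0.18 to 0.17 and edgeR adjusted p of 0.622 to 0.983.

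Of the proteins that bind eIF4E, 0 of 2 members were called by edgeR, DESeq2 or limma voom. At an unadjusted p under 0.05, 1 was lower (beside 6.53% of all genes). Eif4ebp2, a repressor of eIF4E that mTOR phosphorylates, had 59.3, 63.5, 71.0 and 77.9 CPM in the KO libraries, against 68.8, 92.0, 125 and 94.3 CPM in the WT libraries. The groups overlapped through WT replicate 1, with a log2 fold change of -0.48 (SE 0.21, edgeR adjusted p = 0.27). Eif4enif1, a transporter of eIF4E, had 49.1, 65.1, 52.4 and 56.2 CPM in the KO libraries, against 69.6, 67.8, 21.2 and 62.8 CPM in the WT libraries. WT replicate 3 was far below the other libraries, and the log2 fold change was 0.01 (SE 0.31, edgeR adjusted p = 0.998), or -0.26 without that library. Eif4ebp3 had 0 counts in all libraries, but 67.3% of its exon length is shared on the same strand with another annotated gene, and how such reads were counted is not given in the sources used here. Eif4ebp1, left out of the members by the rule, had 85.7, 71.5, 91.0 and 54.2 CPM in the KO libraries, against 18.4, 26.5, 23.9 and 12.3 CPM in the WT libraries, and its groups were separate.

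The factors that select the start codon and join the subunits are eIF1, eIF1A, eIF5 and eIF5B. Of 7 tested genes of this group, 0 were called by edgeR, DESeq2 or limma voom. At an unadjusted p under 0.05, 2 were higher (beside 8.69% of all genes) and 0 lower (beside 6.53%). The median log2 fold change was 0.10. Eif1a, an autosomal eIF1A gene, had 57.6, 61.6, 53.8 and 52.3 CPM in the KO libraries, against 24.2, 42.6, 35.1 and 27.3 CPM in the WT libraries. All KO libraries were above all WT libraries, with a log2 fold change of 0.80 (SE 0.25, edgeR adjusted p = 0.0954). Its X-linked paralog Eif1ax had 108, 126, 120.3 and 134 CPM in the KO libraries, against 118, 122, 97.0 and 119 CPM in the WT libraries, with overlapping groups and a log2 fold change of 0.10 (SE 0.16, edgeR adjusted p = 0.89). Eif5, the activator of GTP hydrolysis by eIF2, had 315, 234, 260.5 and 219 CPM in the KO libraries, against 186, 223, 135 and 177 CPM in the WT libraries. KO replicate 4 lay within the WT range, and the log2 fold change was 0.51 (SE 0.17, edgeR adjusted p = 0.128). Eif5b, which joins the subunits, had 193, 192, 145 and 164 CPM in the KO libraries, against 152, 192, 107 and 141 CPM in the WT libraries, with a log2 fold change of 0.23 (SE 0.18, edgeR adjusted p = 0.673). Eif1, Eif1b and Eif1ad had log2 fold changes of -0.10 to 0.10 and edgeR adjusted p of 0.928 to 0.935.

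Eif5a encodes the hypusine-modified factor that helps ribosomes through difficult peptide bonds. It had 322, 385, 402 and 494 CPM in the KO libraries, against 354, 279, 240.1 and 307 CPM in the WT libraries. KO replicate 1 lay inside the WT range, and the log2 fold change of 0.44 (SE 0.16, edgeR adjusted p = 0.158) did not pass. Its paralog Eif5a2 had 2.62, 20.7, 20.5 and 13.9 CPM in the KO libraries, against 11.6, 15.6, 5.38 and 13.2 CPM in the WT libraries, and its groups overlapped widely. Eif6, which keeps the large subunit apart from the small subunit, had 115, 115, 95.7 and 116 CPM in the KO libraries, against 84.3, 96.4, 41.6 and 92.9 CPM in the WT libraries. WT replicate 3 was the lowest and KO replicate 3 lay within the WT range, with a log2 fold change of 0.48 (SE 0.23, edgeR adjusted p = 0.344). The edgeR fit called 0 of these 3 genes, as did DESeq2 and limma voom. At an unadjusted p under 0.05, 1 was higher (beside 8.69% of all genes).

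For 6 families with more than 1 tested paralog, the share of the first-named gene in the summed CPM per kb was compared. The test was an exact two-sided permutation test over 4 against 4 libraries, whose smallest p is 0.02857. The first-named gene was not always the most abundant. Eif1ax and Eif4g2 had more CPM per kb than Eif1a and Eif4g1 in both groups. Eif1a took 40.3, 38.1, 36.1 and 33.0% of the sum with Eif1ax in KO replicates 1 to 4, against 20.5, 30.5, 31.4 and 22.6% in WT replicates 1 to 4. Eif4g1 took 34.6, 28.1, 28.2 and 29.7% of the sum with Eif4g2 and Eif4g3 in KO, against 22.9, 24.9, 26.9 and 23.7% in WT. In both families all KO shares lay above all WT shares, and both had the smallest p the test can give (exact permutation p = 0.02857, Benjamini-Hochberg adjusted p = 0.08571 over the 6 families). Eif4a1 took 80.6 ± 8.87% of the sum with Eif4a2 in KO and 70.3 ± 7.06% in WT (SD, n = 4 each), with an exact permutation p of 0.1429 and an adjusted p of 0.2857. Eif4e with Eif4e2, Eif5a with Eif5a2 and Eif1 with Eif1b had adjusted p of 0.8571 each in the same exact permutation test. No family passed 0.05 after adjustment.

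**Figure D4:**
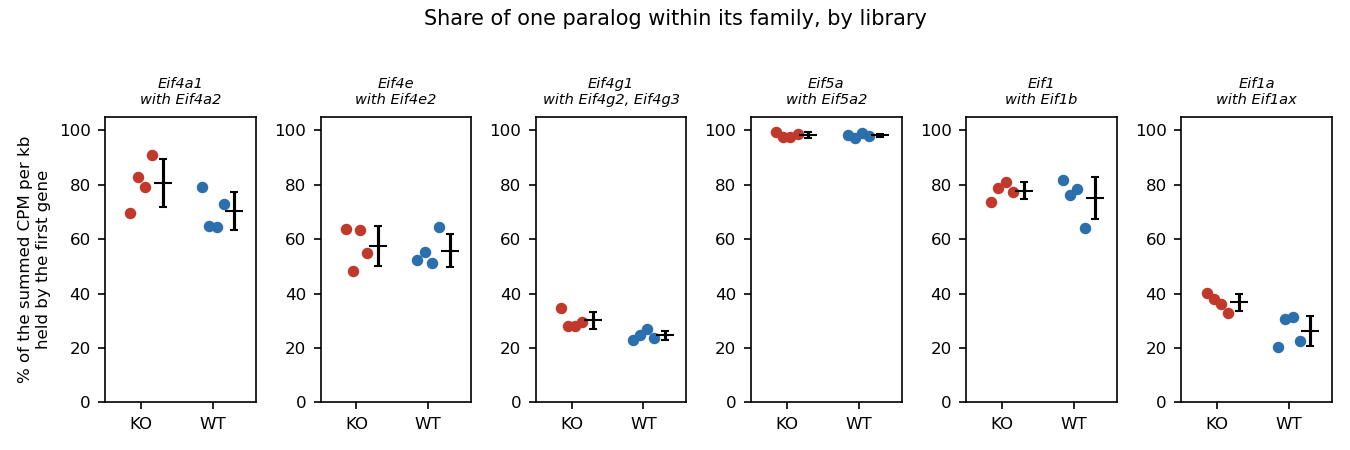
Share (%) of the summed CPM per kb held by the first-named gene of 6 paralog families in each library, with KO in red left of WT in blue. Crosses and bars are the mean and SD (n = 4 each). In the Eif4g1 and Eif1a panels all KO points lie above all WT points.

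Genes that work beside these factors were described from lists. Of 6 genes for poly(A)-binding proteins and their partners, 2 were called higher (beside 2.25% of all genes) and 0 lower (beside 1.39%). Of genes with a mean of at least 100 CPM, the level of Pabpc1, 8.91% were called higher. Pabpc1, the main cytosolic poly(A)-binding protein, which contacts eIF4G, had 991, 830.4, 931 and 962 CPM in KO replicates 1 to 4, against 499, 501, 389.9 and 459 CPM in WT replicates 1 to 4. The KO level was about 2.01-fold the WT level with no overlap, a log2 fold change of 1.01 (SE 0.13, edgeR adjusted p = 0.000358), and it was called in 21 of 21 alternatives. Pabpc4, a close relative, had 80.5, 61.1, 97.6 and 98.9 CPM in the KO libraries, against 43.2, 40.2, 31.7 and 27.2 CPM in the WT libraries, with no overlap and a log2 fold change of 1.25 (SE 0.24, edgeR adjusted p = 0.00691). Its call ended under length and GC detrending (log2 fold change 1.10, edgeR adjusted p = 0.05004). Paip1, Paip2, Paip2b and Pabpn1 were not called.

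Of 5 tested genes for termination and recycling, 2 were called higher (beside 2.25% of all genes) and 0 lower (beside 1.39%). Of genes with a mean of at least 100 CPM, the level of both called genes, 8.91% were called higher. Etf1 encodes the release factor eRF1, and had 228, 174, 165 and 196 CPM in the KO libraries, against 117, 122, 113 and 115 CPM in the WT libraries. Gspt1 encodes its GTPase partner eRF3, and had 175, 139, 152 and 144 CPM in the KO libraries, against 94.6, 75.05, 87.8 and 99.4 CPM in the WT libraries. Both had separate groups, with log2 fold changes of 0.71 (SE 0.15, edgeR adjusted p = 0.0144) for Etf1 and 0.77 (SE 0.16, edgeR adjusted p = 0.0133) for Gspt1, and each was called in 19 of 21 alternatives. Both calls ended with WT replicate 3 and KO replicate 1 left out (edgeR adjusted p = 0.0631 for Etf1 and 0.0572 for Gspt1) and under length and GC detrending (log2 fold change 0.62 and edgeR adjusted p = 0.178 for Etf1, 0.68 and 0.141 for Gspt1). Gspt2 was below the filter. Of the 6 repressors and phosphatase subunits outside the members, Eif4ebp1 was the 1 called, higher in KO (beside 2.25% of all genes).

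Of 11 kinases of these factors, 0 were called higher (beside 2.25% of all genes) and 1 lower (beside 1.39%). Mknk1, which phosphorylates eIF4E, had 46.3, 34.6, 43.0 and 37.1 CPM in the KO libraries, against 84.1, 73.6, 85.2 and 63.9 CPM in the WT libraries. The KO libraries were all below the WT libraries, with a log2 fold change of -0.93 (SE 0.21, edgeR adjusted p = 0.0221). It was called in 14 of 21 alternatives and lost its call without WT replicate 1 (edgeR adjusted p = 0.0595), WT replicate 3 (0.0535), KO replicate 2 (0.0855), KO replicate 3 (0.0637) or KO replicate 4 (0.0587), and under length and GC detrending (0.05004). Its log2 fold change was -1.13 under detrending and -1.01 to -0.86 with each library left out. At an unadjusted p under 0.05 by edgeR, 1 of the 11 kinases was higher (beside 8.69% of all genes) and 2 were lower (beside 6.53%). The eIF2 kinase genes Eif2ak1 to Eif2ak4 were not called, with edgeR adjusted p of 0.183 to 0.962. Eif2ak1, picked out after its values were seen, had every KO library below every WT library (beside 4.67% of all genes). Its log2 fold change was -0.58 (SE 0.22, edgeR adjusted p = 0.183), and it was called in 0 of 21 alternatives. Of 13 scanning helicases and accessory factors 0 were called by edgeR or limma voom and 1, Pdcd4, was called lower by DESeq2 and by edgeR's newer dispersion option. At an unadjusted p under 0.05 by edgeR 2 were higher (beside 8.69% of all genes) and 1 lower (beside 6.53%). Pdcd4, an inhibitor of eIF4A, was the lower gene and had 40.1, 28.7, 25.5 and 18.5 CPM in the KO libraries, against 64.8, 38.4, 68.3 and 61.1 CPM in the WT libraries. KO replicate 1 overlapped with WT replicate 2, and the log2 fold change of -1.05 (SE 0.29, edgeR adjusted p = 0.0572) did not pass. DESeq2 gave -1.08 (adjusted p = 0.0204), and edgeR called it without WT replicate 2 (adjusted p = 0.0395) and without KO replicate 1 (adjusted p = 0.0260). With any other single library left out its edgeR adjusted p was 0.129 to 0.165, and under length and GC detrending 0.102. Pdcd4 was called in 6 of 21 alternatives.

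**Figure D5:**
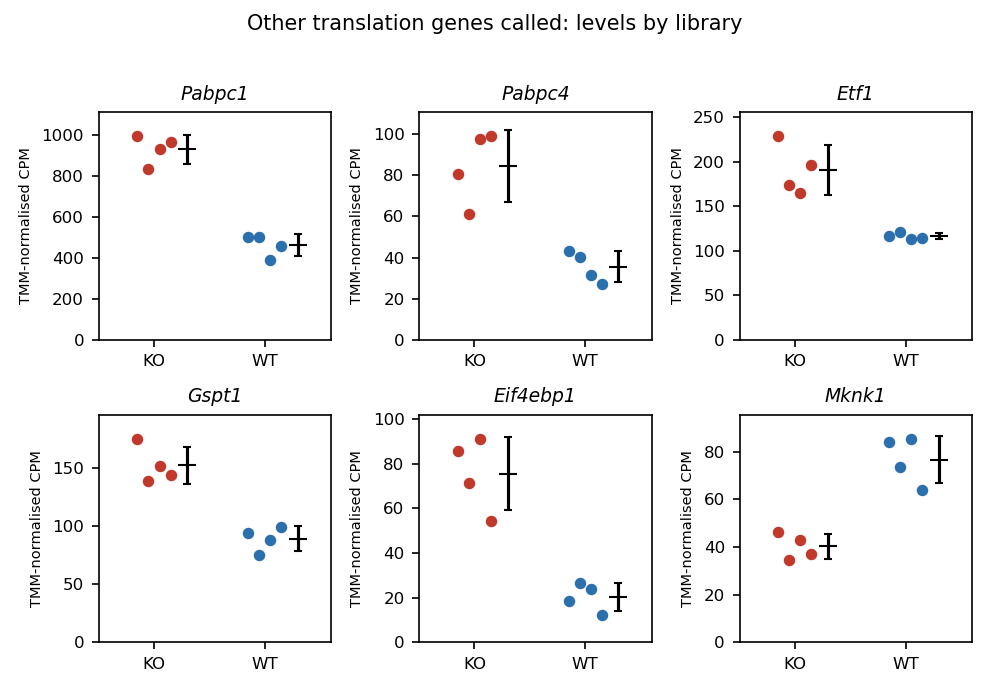
TMM-normalised CPM (y axis, from 0) of the 6 genes called from the lists of other translation genes, with KO libraries in red and WT libraries in blue. Crosses and bars are the mean and SD (n = 4 each). In 5 panels all KO points lie above all WT points, and in the Mknk1 panel they lie below.

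Since 7 members rose in KO, RefSeq's promoter windows (build GRCm38.p6) were searched, which held an entry for 46 of the 61 members. A window holds the 250 bases before an annotated start and 50 bases from the start on. CACGTG, the palindromic E-box bound by MYC and related factors, was present for 11 of the 46 (23.9%). Over all 27025 genes with a window it was present for 6.86%, and over the 9765 tested genes with a window for 9.82%. A gene with several annotated starts counts as holding a motif where any of its windows does, and Eif5a has 6. TGATGCAA or its reverse complement TTGCATCA, an element bound by ATF and C/EBP factors, was present for 0 of 46 members, beside 0.635% of tested genes. A start tract of C followed by at least 4 pyrimidines, added after the data were seen, was present at the annotated start of 2 of the 46 members, beside 3.02% of tested genes. These are letter matches and no binding was measured. RefSeq's start may also differ from the start used in these cells. Of the 7 called members, 5 had an entry, and 2 of these, Eef2 and Eif4a1, held an E-box. Their 200 upstream bases are shown as the called members with the motif, 5′ to 3′ on the gene's strand (plus for Eef2, minus for Eif4a1), with the E-box in capitals.
Eef2 chr10:81176431-81176630: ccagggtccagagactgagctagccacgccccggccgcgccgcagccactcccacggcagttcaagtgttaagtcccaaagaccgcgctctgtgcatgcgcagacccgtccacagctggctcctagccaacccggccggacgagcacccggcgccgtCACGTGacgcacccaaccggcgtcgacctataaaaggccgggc
Eif4a1 chr11:69672424-69672623: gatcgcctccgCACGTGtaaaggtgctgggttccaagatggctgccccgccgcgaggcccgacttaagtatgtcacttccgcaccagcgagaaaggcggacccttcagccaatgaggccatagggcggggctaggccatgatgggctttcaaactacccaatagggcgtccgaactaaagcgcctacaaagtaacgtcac
The E-box starts 43 bases before the annotated start of Eef2 and 189 bases before that of Eif4a1.

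Of the 11 members with an E-box, 9 were not called. Those with the motif within 100 bases of an annotated start are shown with 12 bases on each side, in the same format, so that the flanks can be compared with the Eef2 site (plus strand for Eef2k, Eif1b, Eif3f, Eif4e and Eif4g1, minus strand for Eif3k, Eif4h and Eif5a).
Eif1b chr9:120492570-120492599: cgtgcggacggtCACGTGgcggcggcgcgc
Eef2k chr7:120842788-120842817: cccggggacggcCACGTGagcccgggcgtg
Eif3k chr7:28981915-28981944: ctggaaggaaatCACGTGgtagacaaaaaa
Eif4g1 chr16:20672661-20672690: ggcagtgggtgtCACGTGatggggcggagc
Eif4e chr3:138527192-138527221: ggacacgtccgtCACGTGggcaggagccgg
Eif3f chr7:108934335-108934364: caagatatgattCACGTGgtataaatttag
Eif5a chr11:69921443-69921472: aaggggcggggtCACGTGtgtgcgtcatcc
Eif4h chr5:134639488-134639517: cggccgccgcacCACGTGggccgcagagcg
The log2 fold changes of these 8 genes ran from -0.10 to 0.61.

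Several members have near-identical copies elsewhere in the genome that could take or give reads. Copies were sought among annotated transcripts at 90% identity or more over at least 200 bases. Eef1a1 has 8 pseudogene copies with up to 98.6% identity, which held 0.197% as many counts as the gene over all libraries. The same figure was 0.143% for the 4 copies of Eif4a1, 0.116% for the 2 copies of Eef1g and 0.05% for the 3 copies of Eef2. Eif1a has 5 copies with up to 95.2% identity, and 0 of these are pseudogenes. All these levels, and the share of Eif1a beside Eif1ax, are uncertain by reads that fit several copies. How such reads were counted is not given in the sources used here. Other annotated genes share 7.0% of the exon length of Eef1b2, 6.6% of Eif4a1 and 4.3% each of Eef1a1 and Eef1d on the same strand, and among members not called 14.8% of Eif4e3 and 9.6% of Eif4a2.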

How the data were processed

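RNA from CD31-sorted lung endothelial cells was sequenced in 4 KO and 4 WT libraries, grouped by their titles. The authors deposited a table of whole-number read counts for each gene. The tools named per the submitters' processing notes are edgeR, HTSeq, TopHat and bcl2fastq, with build mm10 (GRCm38). Their versions, filters and strand setting were not given in the sources used here. All 8 value columns matched a label and 0 were left over. IDs without a symbol in GENCODE M21 held at most 0.0795% of a library's counts.

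Counts were normalised with TMM factors, filtered with filterByExpr (minimum count 10, minimum total 15) and compared with edgeR 4.0.16 in R 4.3.3 (quasi-likelihood F test, robust, with genotype alone in the model). P-values were adjusted after Benjamini and Hochberg over all 12689 genes, with a threshold of 0.05. Fold changes are the fitted ones. CPM per kb uses the union of annotated exons. Shares were compared by exact permutation tests (scipy 1.17.1), and copies were sought with blastn 2.17.0. The pipeline was tested on simulated counts. The 21 alternatives were RLE, upper quartile and library-total factors, no filter, a mean of at least 5 CPM, DESeq2 1.42.0, limma voom 3.58.1, edgeR's newer dispersion option, a replicate block, the Y-linked and alveolar type 2 levels as covariates, removal of length and GC trends by splines, each library left out, and WT replicate 3 with KO replicate 1 left out. Replicates of a group differed beyond sampling noise. Reads carry no molecular identifiers, so the floor of 3 counts covers counting error only.

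Values in every library are given for each called member and for up to 4 members with the smallest p of each complex. From the lists of related genes they are given for the genes called, or for up to 2 with the smallest p. The members, the lists and the markers were chosen with earlier results of these data known.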

Additional observations from a re-analysis of the deposited data

Results flagged for a closer look

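In 6 of 70 groups of 4 libraries, among the 35 members named by rule, the highest or lowest library stood apart from the other 3 by Dixon's test for an outlying value, which chance alone does in about 1 of 20 groups. In KO replicate 1, Eef2k stood at 74.8 CPM, against 41.0 to 44.5 CPM in the other KO libraries. Eif2b3 was also high there, at 46.6 CPM against 20.3 to 23.1 CPM. In KO replicate 3, Eif6 was low at 95.7 CPM, against 115 to 116 CPM in the other KO libraries. In WT replicate 3, the library with the fewest counts, Eif1ax was low at 97.0 CPM against 118 to 122 CPM in the other WT libraries, and Eif4enif1 was low at 21.2 CPM against 62.8 to 69.6 CPM. In WT replicate 1, Eif2s1 was high at 122 CPM, against 67.7 to 73.6 CPM in the other WT libraries. The 7 members called higher in KO were not among these genes.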

How the results depend on the processing

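The number of members called higher in KO was 7, and 4 with RLE factors, 3 without the pair WT replicate 3 and KO replicate 1, 0 under length and GC detrending, and 3 to 6 with each library left out. In the same order, the share of all genes called higher was 2.25%, 2.07%, 1.59%, 0.451% and 1.33 to 1.95%. No member was called lower by edgeR, DESeq2 or limma voom in any of the 21 alternatives. At an unadjusted p under 0.05, 1 was lower (beside 6.53% of all genes). The median log2 fold change of the members was 0.31 (beside 0.01 over all genes), and 0.18 under detrending (beside -0.10 over all genes). The number of all genes changed was 461, and 788 by DESeq2, 747 with edgeR's newer dispersion option, 150 under detrending and 270 to 446 with each library left out. The replicate numbers do not pair the libraries: same-numbered libraries deviated from their group means with correlations of -0.104 to 0.00442, and 0 of the 4 KO libraries correlated best with its own number. With the replicate block 3 members were called (Eef1b2, Eef2 and Eif2s2) and 338 genes changed, 215 higher and 123 lower.

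Over the 35 members named by rule and 21 alternatives, 658 of 735 fold changes kept their direction and their side of the threshold, 46 lost their call, 7 gained one and 24 reversed. The reversals lie in 6 members with fold changes near 0 and no call. The log2 fold change of Eef1akmt1 was -0.32 under detrending. That of Eef1akmt2 was 0.78 without WT replicate 1, -0.089 without WT replicate 4, -0.26 without KO replicate 1 and -0.36 without WT replicate 3 and KO replicate 1. That of Eef2k was 0.39 without WT replicate 2, -0.031 without WT replicate 3, -0.075 without KO replicate 1 and -0.28 without both. That of Eif2b1 was 0.37 without WT replicate 1, -0.055 without KO replicate 1 and -0.16 without it and WT replicate 3. That of Eif2b4 was -0.083 under detrending, -0.017 without WT replicate 3, -0.067 without WT replicate 4 and -0.014 without WT replicate 3 and KO replicate 1. That of Eif4enif1 was -0.024 with RLE factors, -0.023 with DESeq2, -0.0022 with upper quartile factors, -0.033 with library totals, -0.0081 with a mean of at least 5 CPM, -0.056 with the newer option, -0.11 under detrending, 0.14 without WT replicate 1, -0.26 without WT replicate 3, -0.076 without KO replicate 2, -0.0081 without KO replicate 4 and -0.20 without WT replicate 3 and KO replicate 1.

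The paralog shares (KO minus WT, percentage points) ran with each library left out from -1.04 to 4.79 for Eif1, 8.73 to 12.3 for Eif1a, 6.84 to 14.0 for Eif4a1, -0.37 to 4.84 for Eif4e, 4.03 to 6.28 for Eif4g1 and -0.26 to 0.44 for Eif5a, which was -0.11 without WT replicate 2. The share of Eif4e was also -0.18 without KO replicate 3. With 3 against 4 libraries the exact test cannot go below 0.05714. The cause of these shifts was not tested. Eef1akmt3 and Eif3j2 fell under the filter on low counts and were not tested. Eef1e1, with 0 to 188 counts in WT libraries, and Eif5a2, with 28 to 264 counts in KO libraries, spread beyond counting error.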

Other observations

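Further lists of translation genes held no gene called by edgeR, DESeq2 or limma voom. Of 10 tested mitochondrial translation factors 0 were called, with a median log2 fold change of 0.11. At an unadjusted p under 0.05, 1 was higher (beside 8.69% of all genes). The gene with the smallest p was Gfm1, the mitochondrial elongation factor G, which had 55.2, 42.9, 48.4 and 63.5 CPM in the KO libraries, against 40.8, 24.7, 17.2 and 48.2 CPM in the WT libraries, with overlapping groups and a log2 fold change of 0.68 (SE 0.31, edgeR adjusted p = 0.309). Mtrf1, a mitochondrial release factor, had 8.90, 1.80, 6.65 and 5.07 CPM in the KO libraries, against 4.52, 14.7, 12.1 and 6.75 CPM in the WT libraries, and its log2 fold change was -0.76 (SE 0.83, edgeR adjusted p = 0.805). Of 9 enzymes that place the hypusine of eIF5A or the diphthamide of eEF2, 0 were called and 0 had an unadjusted p under 0.05, with a median log2 fold change of 0.46. Dohh, the hydroxylase of the hypusine pathway, had 50.9, 47.8, 48.0 and 61.8 CPM in the KO libraries, against 38.5, 37.6, 20.0 and 45.6 CPM in the WT libraries, so its groups were separate, with a log2 fold change of 0.55 (SE 0.27, edgeR adjusted p = 0.357). Dhps, which starts that modification, had 28.4, 24.5, 15.7 and 25.7 CPM in the KO libraries, against 12.5, 24.2, 6.43 and 6.09 CPM in the WT libraries, with a log2 fold change of 0.94 (SE 0.48, edgeR adjusted p = 0.385). Of 5 genes of selenocysteine elongation 0 were called and 0 had an unadjusted p under 0.05, with a median of 0.38. Pstk had 13.4, 11.2, 8.78 and 9.41 CPM in the KO libraries, against 8.36, 7.85, 0 and 2.22 CPM in the WT libraries, and Eefsec had 21.4, 29.7, 16.8 and 19.5 CPM in the KO libraries, against 21.7, 15.7, 12.9 and 16.5 CPM in the WT libraries.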
